A study of Macrostomum lignano with 16 samples.

Results

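The 200 transcripts of Macrostomum lignano that varied most between pools of worms kept in the same social setting are described here. They were taken from 13588 transcripts with a mean of at least 10 CPM (reads scaled to a common library total, with the single most abundant transcript, RNA815_80.1, left out of that total), in a table of 76437 transcripts. For each of the 13588, the mean of its social group was subtracted from log2(CPM+1) in every library, and the 200 with the largest standard deviation (SD) of the 16 deviations were kept, which is 1.47% of those considered. The deviations therefore chose the members, and every statement on deviations, on members that deviate together and on pools that stand apart is a description without a test. Differences between group means were not ranked in the choice and were tested. The limit of 10 CPM applied to the mean of all 16 libraries. A transcript scarce in some groups could thus meet it only through the others. For such transcripts a group difference is not fully separate from the choice.

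Macrostomum lignano is a small free-living marine flatworm and a simultaneous hermaphrodite: each adult carries testes and ovaries at the same time. Its investment in sperm and eggs is known to shift with the number of mating partners. RNA from whole worms mixes gonads, gut, nervous system and all other tissues, so a transcript made in 1 tissue can differ between pools through the amount of that tissue or through its RNA content per cell, and bulk RNA cannot tell these apart. Spread between pools of worms raised alike sets the error against which any response to the social setting is read.

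All worms were adults of strain DV1, 66 to 69 days old, fed on diatoms in artificial sea water. Octet worms were kept 8 together, paired worms 2 together and isolated worms alone, each for 64 days. Joined worms were kept alone for the same time but were put in pairs during the final 24 h, to study short-term effects of mating. Each group has 4 libraries, each made from pooled RNA of whole worms and read as single-end reads of 100 bp. The number of worms in a pool is not given in the labels, and p-values measure the spread between pools, not between individuals.

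The 16 libraries held 7302416 to 10112451 estimated reads, and 60204 to 65569 transcripts had reads in a library. RNA815_80.1 took 9.17% to 21.5% of the reads. Paired pool 4 held 18.0% of the summed squared deviations of the 13588 transcripts, followed by isolated 3 with 10.4%, octet 3 with 9.78% and paired 2 with 9.66%, where equal shares would be 6.25%. In the 200 members paired 4 held 19.9% and isolated 3 held 14.8%, and counts of calls are also given without these libraries. The identifiers are those of a transcriptome assembly without gene names, so no transcript is given a name or a role, and no tissue markers could be checked.

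The members' SD ran from 0.55 to 1.71 log2 units with a median of 0.65, against a median of 0.20 for the eligible transcripts that were not members. The last members inside the limit were RNA815_7688, RNA815_6388 and RNA815_18938.1, each at 0.55, and the first outside it were RNA815_104.1, RNA815_18938.2 and RNA815_512.1, also at 0.55. The limit therefore falls in a continuous range, and transcripts that share the number of RNA815_18938 lie on both sides of it. The members' mean levels ran from 10.0 to 12350 CPM with a median of 36.2 CPM, while the 13588 transcripts reached 207686 CPM. In all 200 the SD was more than 3 times the spread that counting reads alone would give. The limits on mean level and SD used in the choice already lead to this, so it is not a separate result. The members took 1.35% of the reads in octet 4 and 9.56% in joined 3, the lowest and the highest share.

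Most members deviated together. When members were grouped by the correlation of their deviations over the 16 libraries (average linkage, r of at least 0.5), 175 of the 200 fell into 1 set. A second set held 14 members, another held 5, and 6 members belonged to no set of at least 5. The first axis of the members' deviations carried 64.0% of their variance and the second 21.3%, against 45.2% and 18.5% for the 13588 transcripts. Leaving out any 1 library left 173 to 175 members in the largest set and 13 to 16 in the second.

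**Figure D1:**
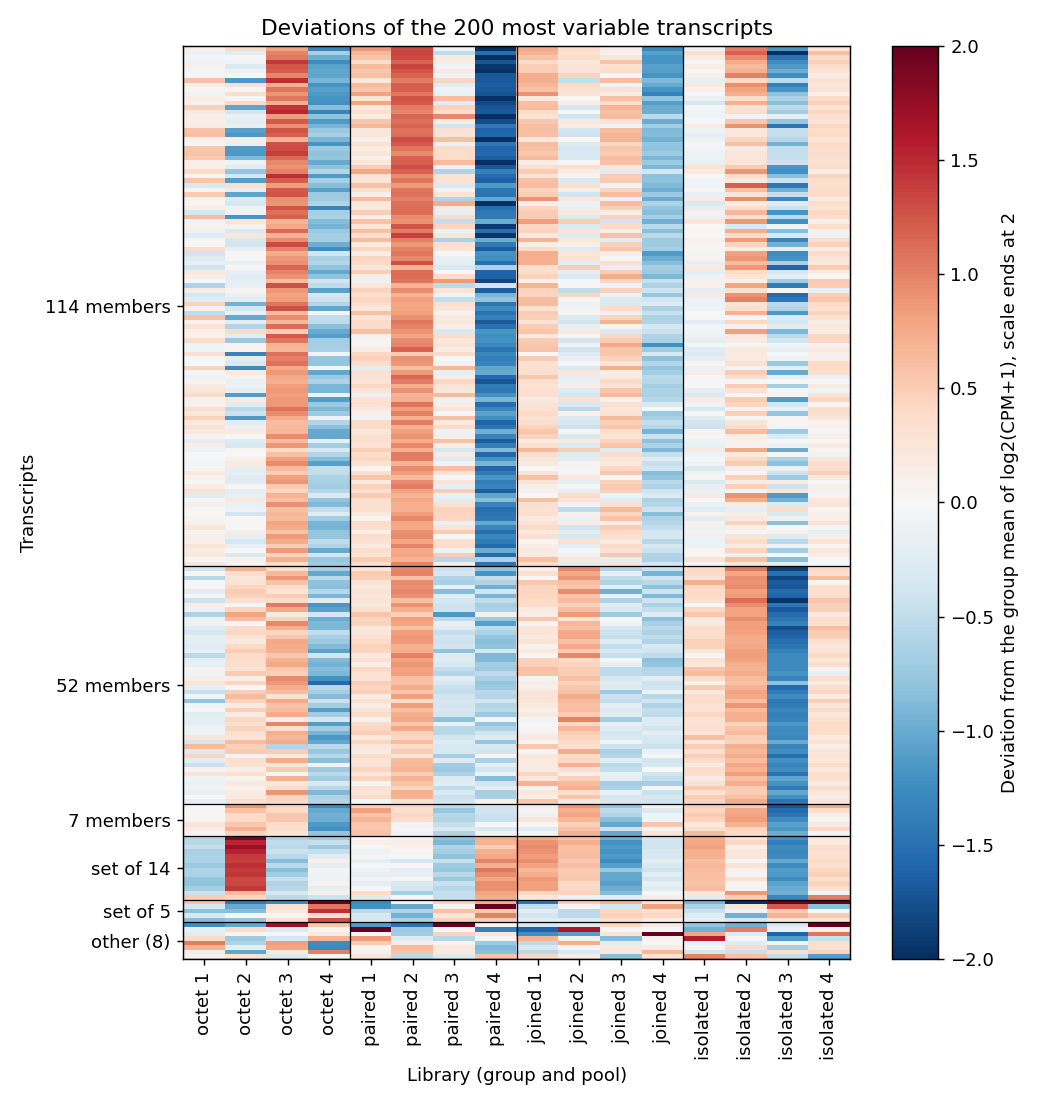
Deviations of the 200 members (rows, ordered by set) from the mean of their group in each of the 16 libraries (columns), in log2(CPM+1) units, with blue below and red above the group mean. The blocks of 114 and 52 are low in octet 4, paired 4, joined 4 and isolated 3, and the block of 14 is high in octet 2.

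In each group the same pool was lowest in most of the 175 members of the large set. Octet 4 was the lowest octet pool in 144 of them, paired 4 the lowest paired pool in 152, joined 4 the lowest joined pool in 142 and isolated 3 the lowest isolated pool in 149. Octet 3 was the highest octet pool in 155, paired 2 the highest paired pool in 163 and isolated 2 the highest isolated pool in 132. In the joined group no pool was highest in most members: joined 1 led in 66. The median ratio of the highest to the lowest pool of a group, taken from log2(CPM+1), was 3.15 in octet, 4.19 in paired, 2.34 in joined and 2.92 in isolated worms.

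The 4 pools that were lowest in the large set also had the fewest transcripts with reads in their groups. These numbered 60204 in octet 4, 62738 in paired 4, 64847 in joined 4 and 61320 in isolated 3. Paired 4 and joined 4 were the shallowest libraries of their groups, with 7392780 and 7469250 reads, and isolated 3 was the deepest isolated library, with 8419801. Octet 4, paired 4 and joined 4 also share a replicate number, while isolated 4 was not the lowest isolated pool. Over the 13588 transcripts their deviations had correlations of 0.57 to 0.73 with each other and of -0.35 to -0.23 with isolated 4. The part of detection, depth or replicate number in the spread of the members was not tested.

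Transcript RNA815_4 is 1 of the 3 members whose deviations were most like those of the rest of the large set. It stood at 312, 296, 639 and 142 CPM in octet pools 1 to 4, at 1234, 1920, 800 and 260 CPM in paired pools, at 1923, 1565, 1581 and 568 CPM in joined pools and at 953, 1579, 397 and 1107 CPM in isolated pools. Within each group the pool named above was the lowest, and paired 4 lay within the range of the octet pools. Its SD was 0.86. RNA815_81 and RNA815_89.1 were the others of the 3, with SDs of 0.56 and 0.90.

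The most abundant members also belong to this set. RNA815_123.1, with a mean of 12350 CPM, ran from 2285 CPM in octet 4 to 23094 CPM in joined 3, and its pools stood at 4966, 3682, 11490 and 2285 CPM (octet), 11667, 17211, 11807 and 4224 CPM (paired), 21796, 16910, 23094 and 11427 CPM (joined) and 13207, 17411, 9094 and 17335 CPM (isolated). RNA815_92.1, RNA815_31.1, RNA815_123.3 and RNA815_7103 followed, with means of 7177, 5639, 5168 and 3620 CPM. In each of these the counting error is far below the spread. For RNA815_123.1 the SD was 132 times that of counting.

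At a stricter correlation of 0.6 the large set split into groups of 114 and 59 members, with 2 members in neither. The split followed the pools. In the 114, the largest deviation lay in paired 4 for 91 members and in isolated 3 for 15. In the 59, it lay in isolated 3 for 54 members and in paired 4 for none. The median deviation of the 114 was -1.46 in paired 4 and -0.52 in isolated 3, and that of the 59 was -0.58 in paired 4 and -1.36 in isolated 3.

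**Figure D2:**
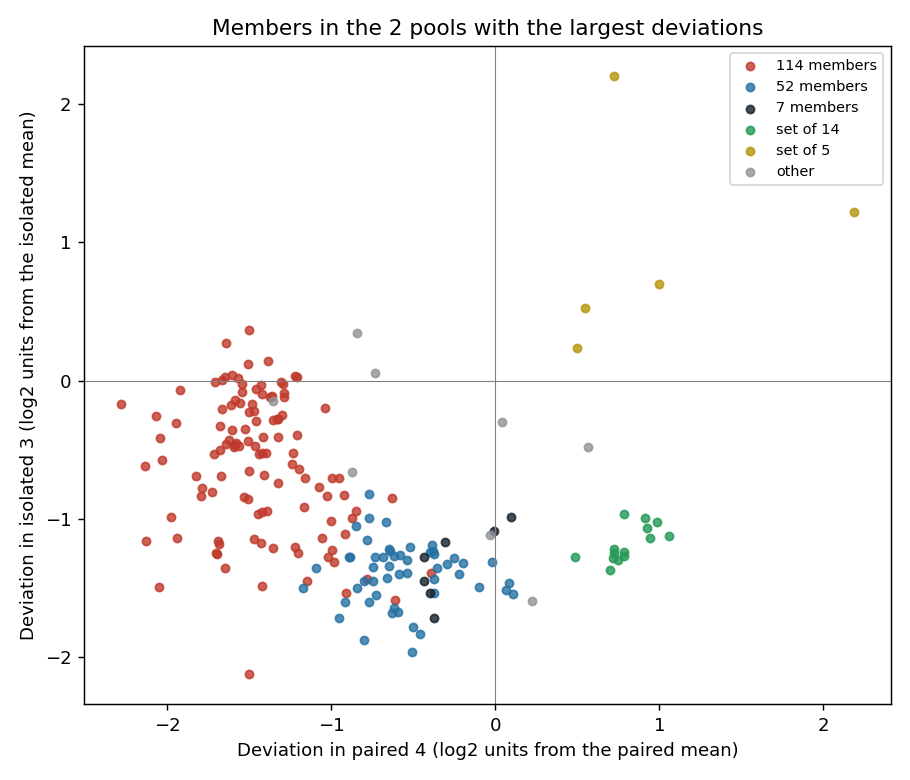
Deviation of each of the 200 members in paired 4 (horizontal) and isolated 3 (vertical), in log2 units from the mean of the 4 pools of its group, coloured by set. The 114 members lie far to the left and the 59 (52 and 7) lie low, while the set of 14 is low in isolated 3 and high in paired 4, and the set of 5 is high in both.

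RNA815_54, from the 114, had 114, 101, 216 and 45.3 CPM in octet pools 1 to 4 and 366, 730, 464 and 68.3 CPM in paired pools. It had 896, 771, 1183 and 449 CPM in joined pools and 559, 782, 398 and 801 CPM in isolated pools. Paired 4 lay far below the other paired pools and within the octet range, while isolated 3 lay less far below the other isolated pools. RNA815_27244, also from the 114, deviated by -2.28 in paired 4, and that library held 52.3% of its summed squared deviations.

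RNA815_180, the member with the largest deviation in isolated 3 among those that were low there, had 5.24, 4.80, 12.5 and 3.30 CPM in octet pools and 28.7, 47.5, 12.4 and 5.69 CPM in paired pools. Its joined pools stood at 46.0, 34.8, 29.7 and 12.7 CPM and its isolated pools at 24.2, 43.5, 3.52 and 28.8 CPM. Both paired 4 and isolated 3 fell to octet levels in this transcript. RNA815_78, from the 59, deviated by -1.96 in isolated 3, which held 48.9% of its summed squared deviations.

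Over all 200 members, the largest deviation lay in paired 4 for 93 (91 of them low) and in isolated 3 for 71 (all low). Octet 2 held it for 15, of which 12 were high, and octet 4 for 13, of which 11 were low. Among the 13588 transcripts it lay in paired 4 for 29.8% and in isolated 3 for 13.7%. The library with the largest share of a member's summed squared deviations held a median of 30.5% and at most 55.4%, and it held over 50% in 8 members. With paired 4 and isolated 3 left out of the choice, 149 of the 200 members were chosen again.

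The pattern of the large set reached beyond the members. Of the 13588 transcripts, 1359 followed its mean deviation with a correlation above 0.8 over the 16 libraries, and 135 of these were members. A further 849 ran against it with a correlation below -0.8, and none of these was a member. The transcripts that ran with the set had a median SD of 0.33 and those that ran against it one of 0.18, with a highest value of 0.53. These points share libraries and depth, so the correlations are a description.

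The choice was repeated without each group in turn, so that spread could be read in libraries whose spread had no part in it. The mean of at least 10 CPM used for the shares below was still taken over all 16 libraries. It kept 189 of the 200 without the octet pools, 197 without the paired pools and 199 without the joined or the isolated pools. When the 200 were chosen from the other 12 libraries without the octet pools, 168 members were chosen again, and 88.4% of the chosen transcripts with a mean of at least 10 CPM lay in the top 10% of SD within the octet pools. Their median SD there was 0.67, against 0.22 for all 13588. Without the paired pools the values were 153 members, 78.7% and a median SD of 0.67 against 0.23. Without the joined pools they were 182 members, 92.5% and 0.55 against 0.18. Without the isolated pools they were 155 members, 55.8% and 0.41 against 0.18. Transcripts chosen on 3 groups thus had a higher median SD in the group left out than all eligible transcripts in each case.

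Lists made from the pools of 1 group at a time were also compared with the members. Of the 200 members, 122 were among the 200 most variable transcripts within the octet pools alone, 106 within the paired pools, 114 within the joined pools and 112 within the isolated pools. They counted among them in all 4 groups for 20 members, in 3 groups for 58, in 2 for 79, in 1 for 42 and in none for 1.

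The set of 14 followed another order of pools. It holds RNA815_1580.1, RNA815_1580.2, RNA815_1580.3, RNA815_1580.5, RNA815_1580.6, RNA815_7270.1, RNA815_7270.2, RNA815_23610, RNA815_50369, RNA815_49423.1, RNA815_51765.1, RNA815_55589.2, RNA815_57106 and RNA815_47532.1. Octet 2 was the highest octet pool in 13 of the 14, paired 4 the highest paired pool in 14 and joined 1 the highest joined pool in 13. Isolated 3 was the lowest isolated pool in all 14 and joined 3 the lowest joined pool in all 14. Its mean deviation was 1.35 in octet 2, 0.80 in paired 4 and -1.18 in isolated 3. Paired 4, the lowest paired pool for the large set, was thus the highest for this one.

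RNA815_23610 shows this order. It had 117, 541, 135 and 172 CPM in octet pools, 446, 452, 276 and 746 CPM in paired pools, 760, 664, 205 and 347 CPM in joined pools and 901, 686, 239 and 704 CPM in isolated pools. Octet 2 lay inside the range of every other group, while the other octet pools lay below all paired, joined and isolated pools. RNA815_1580.3 had 58.2, 241, 61.2 and 77.8 CPM in octet pools, 214, 201, 117 and 354 CPM in paired pools, 355, 302, 89.5 and 157 CPM in joined pools and 415, 294, 104 and 318 CPM in isolated pools. The summed transcripts that share this number had an SD of 0.79, as large as that of its members.

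The set of 5 holds RNA815_2035.2, RNA815_3057.5, RNA815_5900.1, RNA815_5900.4 and RNA815_27081. It ran largely against the large set: its mean deviation was 1.25 in octet 4, 0.99 in paired 4 and 0.98 in isolated 3, the pools in which the large set was low. RNA815_5900.4 had 8.62, 8.49, 18.8 and 45.8 CPM in octet pools, 10.7, 10.3, 24.6 and 23.9 CPM in paired pools, 32.8, 26.7, 51.9 and 49.3 CPM in joined pools and 33.4, 43.3, 66.8 and 46.2 CPM in isolated pools. Octet 4 lay within the joined and isolated ranges, above the other octet pools and all paired pools. Over the 16 libraries the mean deviations of this set and of the 114 members had a correlation of -0.65.

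RNA815_2035.2 was the most variable member of all, with an SD of 1.71. It had 69.8, 17.0, 18.5 and 205 CPM in octet pools, 36.5, 92.3, 122 and 146 CPM in paired pools, 24.0, 97.1, 109 and 82.1 CPM in joined pools and 7.86, 0, 76.6 and 115 CPM in isolated pools. All groups overlapped. The 0 in isolated 2 rests on no reads, which allows up to 0.476 CPM (3 counts, counting error only). RNA815_2035.1, with which it shares a number, had an SD of 0.36, and the sum of both had one of 0.50 and ran from 128 CPM in isolated 1 to 480 CPM in octet 4.

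RNA815_80.2 was second, with an SD of 1.21. It had 99.5, 114, 769 and 341 CPM in octet pools, 94.1, 72.5, 1205 and 210 CPM in paired pools, 51.3, 54.6, 87.4 and 74.3 CPM in joined pools and 51.4, 45.1, 71.9 and 370 CPM in isolated pools. It was high in octet 3, paired 3 and isolated 4, and its joined pools lay closest together. All octet pools lay above all joined pools. It makes up 0.110% of the sum of the transcripts that share its number, a sum whose SD was 0.33.

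A similar gap between a transcript and its number was seen in few members. Of the 98 members with transcripts that share their number, 7 had a sum with an SD under 0.667 of their own. They are RNA815_1715.6 (0.90 against 0.11 for the sum), RNA815_80.2, RNA815_1039.2 (0.55 against 0.16), RNA815_2035.2, RNA815_3057.5 (0.94 against 0.28) and the pair RNA815_5900.4 and RNA815_5900.1 (0.63 and 0.55 against 0.35). RNA815_1039.2 was chosen for mention after its values were seen. In 4 of the 5 members of the set of 5 the spread was thus larger than that of the number. RSEM, the authors' quantifier, divides reads among similar transcripts, and its part in these members was not tested.

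In the other members with such transcripts the SD of the sum was closer to that of the member. The sum includes the member, which made up 99.9% of it in RNA815_5.1 and 5.27% in RNA815_1580.2. Where the member is nearly all of the sum, the likeness is arithmetic and says nothing about the other transcripts of that number. The sum reached the limit of the list in 82 of the 98, and the median SD was 0.66 for the members and 0.65 for the sums. The 200 members carry 176 distinct numbers, and 16 numbers hold more than 1 member. RNA815_3724 holds 4 members and its sum, at a mean of 1031 CPM, had an SD of 0.81. RNA815_31, RNA815_1365 and RNA815_716 hold 3 each, and their sums had SDs of 0.72, 0.76 and 0.67. All members of these 4 numbers belong to the large set.

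The members' identifiers also had low numbers. A number under 100 was carried by 45 members (22.5%), against 114 (0.839%) of the 13588, and a number under 1000 by 89 (44.5%) against 7.76%. Of the 45, 44 belong to the large set. The median number was 1476.5 for members and 7891 for the 13588. What order the assembly used to number its transcripts is not given in the sources used here. A suffix, which marks more than 1 transcript of a number, was carried by 49% of members and 37.4% of the 13588.

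Group means were compared by limma-voom, a linear model of log2 CPM that weights each value by its precision, fitted to all 40265 transcripts that passed a filter on low counts. All 200 members passed it. Calls have a Benjamini-Hochberg adjusted p under 0.05 over the 40265. The spread that chose the members enters the error of these tests, so the median standard error of a member's log2 fold change between octet and isolated worms was 0.43, against 0.25 over all tested. By the F-test over the 4 groups 105 of the 200 members (52.5%) were called, against a background of 38.9% of the 13588 transcripts with a mean of at least 10 CPM. The count was 64 without octet 4 and 166 without paired 4 and isolated 3. Paired 4 and isolated 3 were picked by the deviations that chose the members. Leaving them out takes away the largest deviations of most members, which lowers their error. Higher counts without these pools, here and below, are therefore not a separate result. Backgrounds are those of the main fit, and none is given for the other fits.

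**Figure D3:**
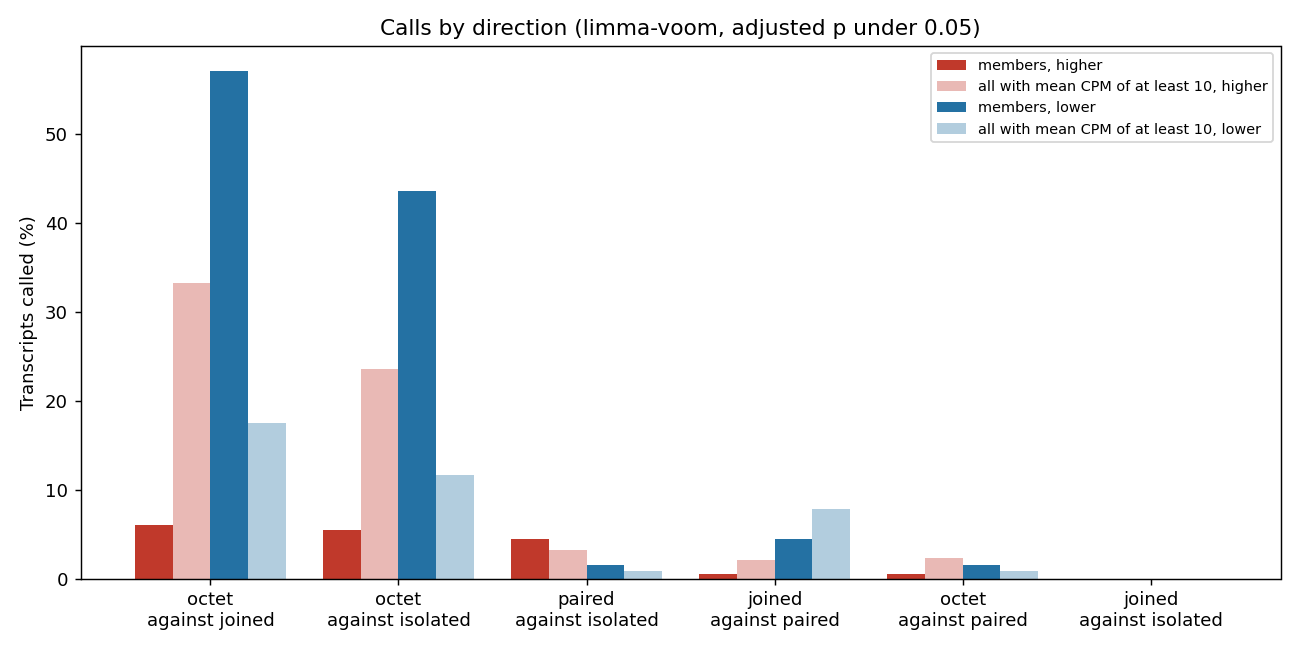
Share of transcripts called higher or lower in the first-named group in each comparison (limma-voom, adjusted p under 0.05), for the 200 members (dark bars) and for the 13588 transcripts with a mean of at least 10 CPM (pale bars). Members were called lower in octet worms in larger shares than the background and higher in smaller shares, and no transcript was called between joined and isolated worms.

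Octet worms had less of most members than joined worms, the contrast between lasting company in a group of 8 and 24 h with 1 partner. Of the 200 members, 126 were called, 114 lower and 12 higher in octet worms. The background was 50.7% called, 17.5% lower and 33.2% higher. The median log2 fold change of the members was -1.35. All 59 members of the second subset were called, 52 lower and 7 higher, and 59 of the 114 were called, all lower. None of the set of 14 and 2 of the set of 5 were called. Without any 1 library the count stayed between 104 and 146, and it was 152 without paired 4 and isolated 3 together.

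Octet worms were also compared with isolated worms. Here 98 members were called, 87 lower and 11 higher in octet worms, against a background of 35.2% called, 11.6% lower and 23.6% higher. The median log2 fold change was -1.08 over the members, a level in octet worms of 0.473 times that in isolated worms. Of the 114, 43 were called, all lower, and of the 59, 36 were called lower and 7 higher. In the set of 14, 4 were called lower. The count fell to 64 without octet 1, 44 without octet 4, 48 without isolated 2 and 52 without isolated 4, and it was 156 without paired 4 and isolated 3 together. This comparison and the preceding one share the octet libraries.

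RNA815_123.1, the most abundant member, had a mean of 5605 ± 4073 CPM in octet, 11227 ± 5335 in paired, 18307 ± 5303 in joined and 14262 ± 3966 CPM in isolated worms (SD, n = 4 each). Its log2 fold change was -1.67 ± 0.37 (SE) between octet and joined worms and -1.39 ± 0.37 between octet and isolated worms, and the limma adjusted p was 0.0016 and 0.010. RNA815_54 differed by -2.67 ± 0.49 and -2.39 ± 0.49 in the same comparisons, and the limma adjusted p was 0.00031 and 0.0015. Octet 3, the highest octet pool, lay within the isolated range in RNA815_123.1, while all octet pools lay below all isolated pools in RNA815_54.

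Between octet and paired worms the fitted difference was similar but few members passed the test. Of the 200 members 177 were fitted lower in octet worms, with a median log2 fold change of -1.03, and 4 were called, against a background of 3.14%. RNA815_71.1, RNA815_256 and RNA815_12 were lower (background 0.81%), by log2 fold changes of -1.64, -1.66 and -1.65, and RNA815_16439 was higher (background 2.33%), by 1.86. This count changed when single libraries were left out, with the weighting of libraries and with a replicate block (a term for the replicate number). No background is given for these fits, so the changes cannot be read as particular to the members. With the block 99 were called, of which 96 were lower in octet worms, though no label says what a replicate number marks. With a quality weight per library the count was 122, of which 118 were lower in octet worms. It was 114 without paired 4, 47 without isolated 3, 46 without octet 3, 145 without paired 4 and isolated 3, 2 without octet 2, joined 1, joined 3, isolated 1 or isolated 4, and 0 without octet 1, octet 4, paired 1 or paired 2. RNA815_71.1 lost its call in 5 of 26 alternatives, RNA815_16439 in 7, RNA815_256 in 11 and RNA815_12 in 13.

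RNA815_71.1 had 93.7, 84.0, 153 and 41.2 CPM in octet pools and 369, 492, 270 and 145 CPM in paired pools, with paired 4 below octet 3. It had 417, 358, 446 and 271 CPM in joined pools and 344, 458, 206 and 394 CPM in isolated pools, all above the octet pools. RNA815_16439 ran the other way, with 40.7, 18.7, 24.7 and 51.3 CPM in octet pools, 18.1, 7.89, 6.13 and 9.34 CPM in paired pools, 9.62, 5.96, 2.60 and 5.91 CPM in joined pools and 18.8, 5.72, 2.09 and 3.93 CPM in isolated pools. All its octet pools lay above all paired pools, and isolated 1 lay just above octet 2.

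Paired and isolated worms differed in few members. Of the 200, 12 were called, 9 higher and 3 lower in paired worms, against a background of 4.13% called, 3.23% higher and 0.898% lower. The count was 11 to 16 without any 1 library and 16 without paired 4 and isolated 3. The median log2 fold change of the members was 0.02. Of the 114 none was called, and of the 59 the 7 that were higher in octet than in joined worms were called higher.

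Joined and paired worms differed in 10 members, 9 lower and 1 higher in joined worms, where the background was 9.9% called, 7.78% lower and 2.12% higher. The median log2 fold change of the members was 0.24, so most were fitted higher in joined worms while most of those called were lower. The direction of the calls changed with single libraries and with the model, for which no background is given. With a quality weight per library 21 were called, 11 higher and 10 lower in joined worms. With a replicate block (a term for the replicate number) 38 were called, 28 of them higher. No label says what a replicate number marks. Without paired 2, 22 members were called, 13 higher and 9 lower, and without isolated 3, 18 were called, 9 higher and 9 lower. The count was 18 without isolated 3 and paired 4 and 9 to 12 without any 1 of the other libraries. This comparison shares the paired libraries with that of paired and isolated worms.

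No member was called between joined and isolated worms, the contrast that isolates the first 24 h with a partner, and none of the 13588 background transcripts was either (0%). In limma-voom 13 members had an unadjusted p under 0.05, against 946 of the 13588 (6.96%). No member was called in limma-trend, with quality weights or in any other fit run. The median log2 fold change of the members was 0.35, which was below the median standard error of these differences, 0.39. All 59 of the second subset were fitted higher in joined worms, with a median log2 fold change of 0.61, and none was called. That the members' direction was shared does not make them separate observations, since they deviate together.

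**Figure D4:**
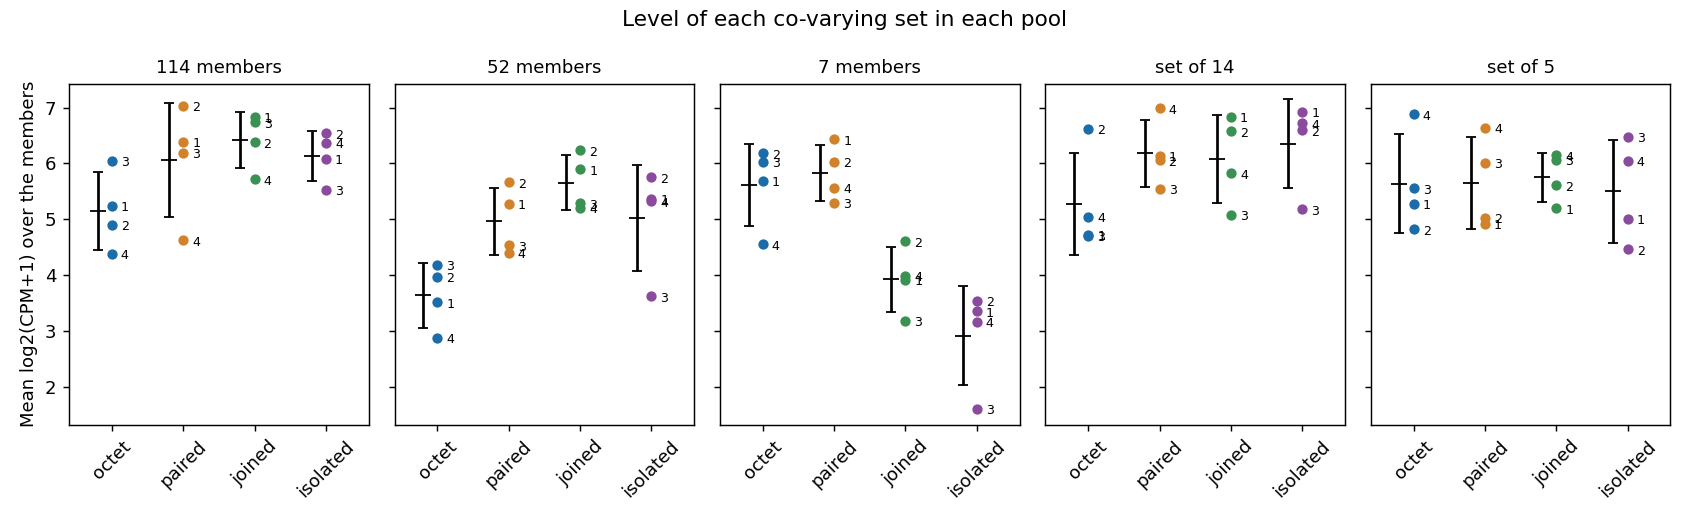
Mean log2(CPM+1) over the members of each set (panels) in each pool (points, with the pool number), by group, with the mean and SD of the 4 pools as bars. By group mean the 52 members are lowest in octet worms and the 7 are lowest in isolated and joined worms. For the 52, isolated 3 lies within the octet range, and for the 7, joined 2 lies above octet 4. In both, octet 4 and isolated 3 are the lowest pools of their groups.

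Within the subset of 59, 7 members varied with the other 52 between pools but differed between groups in the opposite direction. They are RNA815_324.1, RNA815_324.2, RNA815_471.1, RNA815_2976, RNA815_14112, RNA815_7654.1 and RNA815_7654.2, singled out after their values were seen because they were called higher in octet than in joined worms. The correlation of each with the mean deviation of the 52 was 0.73 to 0.95 over the 16 libraries. The same deviations placed the 7 and the 52 in 1 subset, so a high correlation follows from the grouping. The mean log2(CPM+1) of the 52 was 3.51, 3.97, 4.19 and 2.88 in octet pools, 5.28, 5.66, 4.53 and 4.40 in paired pools, 5.90, 6.23, 5.28 and 5.21 in joined pools and 5.37, 5.76, 3.62 and 5.32 in isolated pools. That of the 7 was 5.69, 6.18, 6.03 and 4.55 in octet pools, 6.43, 6.03, 5.29 and 5.57 in paired pools, 3.91, 4.61, 3.18 and 3.99 in joined pools and 3.35, 3.54, 1.60 and 3.16 in isolated pools. Octet 4 and isolated 3 were the lowest pools of their groups in both, while the groups were ordered differently. The lowest paired and joined pools were paired 4 and joined 4 in the 52, but paired 3 and joined 3 in the 7.

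RNA815_324.1 had 303, 370, 327 and 114 CPM in octet pools, 266, 171, 130 and 180 CPM in paired pools, 37.9, 53.3, 18.3 and 56.1 CPM in joined pools and 11.2, 16.1, 3.98 and 11.0 CPM in isolated pools. The octet and paired pools lay above all joined and isolated pools, and the joined above all isolated pools. Its log2 fold change was 4.92 ± 0.41 (SE) between octet and isolated, 4.27 ± 0.41 between paired and isolated and 3.00 ± 0.35 between octet and joined worms, and the limma adjusted p was 2.66e-08, 8.96e-07 and 2.15e-06. The joined and isolated worms differed by 1.92 ± 0.42, with a limma adjusted p of 0.74.

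RNA815_2976 had 216, 287, 252 and 120 CPM in octet pools, 376, 244, 167 and 271 CPM in paired pools, 55.9, 89.6, 25.7 and 65.8 CPM in joined pools and 53.8, 45.7, 16.8 and 33.2 CPM in isolated pools. Again all octet and paired pools lay above all joined and isolated pools. The other members of the 7 were scarcer, and in RNA815_324.2 the 2 pairs of groups did not overlap either. In RNA815_471.1 octet 4, at 34.5 CPM, lay below joined 2, at 37.9 CPM. In RNA815_14112, RNA815_7654.1 and RNA815_7654.2 octet 4 was likewise below joined 2.

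All 7 were called higher in octet than in isolated worms, with log2 fold changes of 2.36 to 4.92, and higher in paired than in isolated worms, with 2.65 to 4.27. All 7 were also called lower in joined than in paired worms, with -2.35 to -1.76. The octet and joined libraries enter the comparison that singled them out, so these counts are not separate from it. In RNA815_14112 and RNA815_324.2 no joined or isolated pool exceeded 9.51 and 9.35 CPM. These members met the limit on mean level only through octet and paired pools. Of the 28 calls in these 3 comparisons and in octet against joined worms, 25 were kept under every one of 26 alternatives. The other 3 calls, in RNA815_7654.1 and RNA815_7654.2, were lost without some single libraries.

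Members outside the sets also differed between groups. RNA815_6699 had 0.237, 0.779, 0.140 and 0.428 CPM in octet pools, 22.3, 2.44, 4.67 and 1.19 CPM in paired pools, 6.03, 65.8, 20.6 and 20.2 CPM in joined pools and 19.3, 79.7, 34.8 and 41.0 CPM in isolated pools. Every octet pool lay below every other pool, and the spread that made it a member lay in the paired and joined pools, where the highest pool was 18.7 and 10.9 times the lowest. Its log2 fold change was -6.45 ± 1.62 (SE) between octet and isolated worms, with a limma adjusted p of 0.0071, and -3.04 ± 0.67 between paired and isolated worms, with a limma adjusted p of 0.015. The octet values rest on few reads, near the floor, so the size of the first fold change is uncertain. It ran from -6.81 to -5.79 over 26 alternatives.

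RNA815_1715.6 was steady where it was high and scattered where it was low. It had 26.3, 31.6, 30.2 and 35.2 CPM in octet pools and 16.2, 9.44, 22.1 and 18.7 CPM in paired pools. It had 0, 0.0942, 1.81 and 8.55 CPM in joined pools and 4.21, 1.52, 0 and 5.34 CPM in isolated pools, where the zeros allow up to 0.489 and 0.418 CPM (3 counts). All octet and paired pools lay above all joined and isolated pools. The log2 fold change was 5.54 ± 1.00 (SE) between octet and joined worms, with a limma adjusted p of 0.00029. It makes up 0.661% of the sum over its number, which had a mean of 1997 CPM and an SD of 0.11.

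RNA815_15432.1 had 176, 200, 137 and 163 CPM in octet pools, 121, 70.2, 83.3 and 151 CPM in paired pools, 15.7, 12.9, 6.06 and 14.2 CPM in joined pools and 20.5, 15.5, 6.81 and 4.07 CPM in isolated pools. RNA815_21158.1 ran the other way, with 28.0, 14.6, 35.3 and 63.2 CPM in octet pools, 31.9, 44.6, 33.7 and 16.1 CPM in paired pools, 448, 524, 762 and 1043 CPM in joined pools and 584, 553, 952 and 1032 CPM in isolated pools. In both, the octet and paired pools lay apart from all joined and isolated pools. Their log2 fold changes between joined and paired worms were -3.26 ± 0.35 and 4.36 ± 0.34 (SE), with limma adjusted p-values of 3.07e-06 and 7.17e-08. Their SDs, 0.56 for each, were close to the limit of the list.

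The most variable pair of members gave 1 call. RNA815_2035.2 had a limma adjusted p of 0.16 or more in all 6 comparisons, with a log2 fold change of 2.58 (95% interval -0.12 to 5.28) between octet and isolated worms. RNA815_80.2 was called only between octet and joined worms, by 2.08 ± 0.72 with a limma adjusted p of 0.029. RNA815_3057.5 had 60.2, 37.8, 95.4 and 160 CPM in octet pools, 25.8, 29.7, 63.0 and 282 CPM in paired pools, 28.9, 42.2, 32.0 and 73.1 CPM in joined pools and 29.5, 55.4, 110 and 25.8 CPM in isolated pools. Its groups overlapped, and its smallest limma adjusted p was 0.12.

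**Figure D5:**
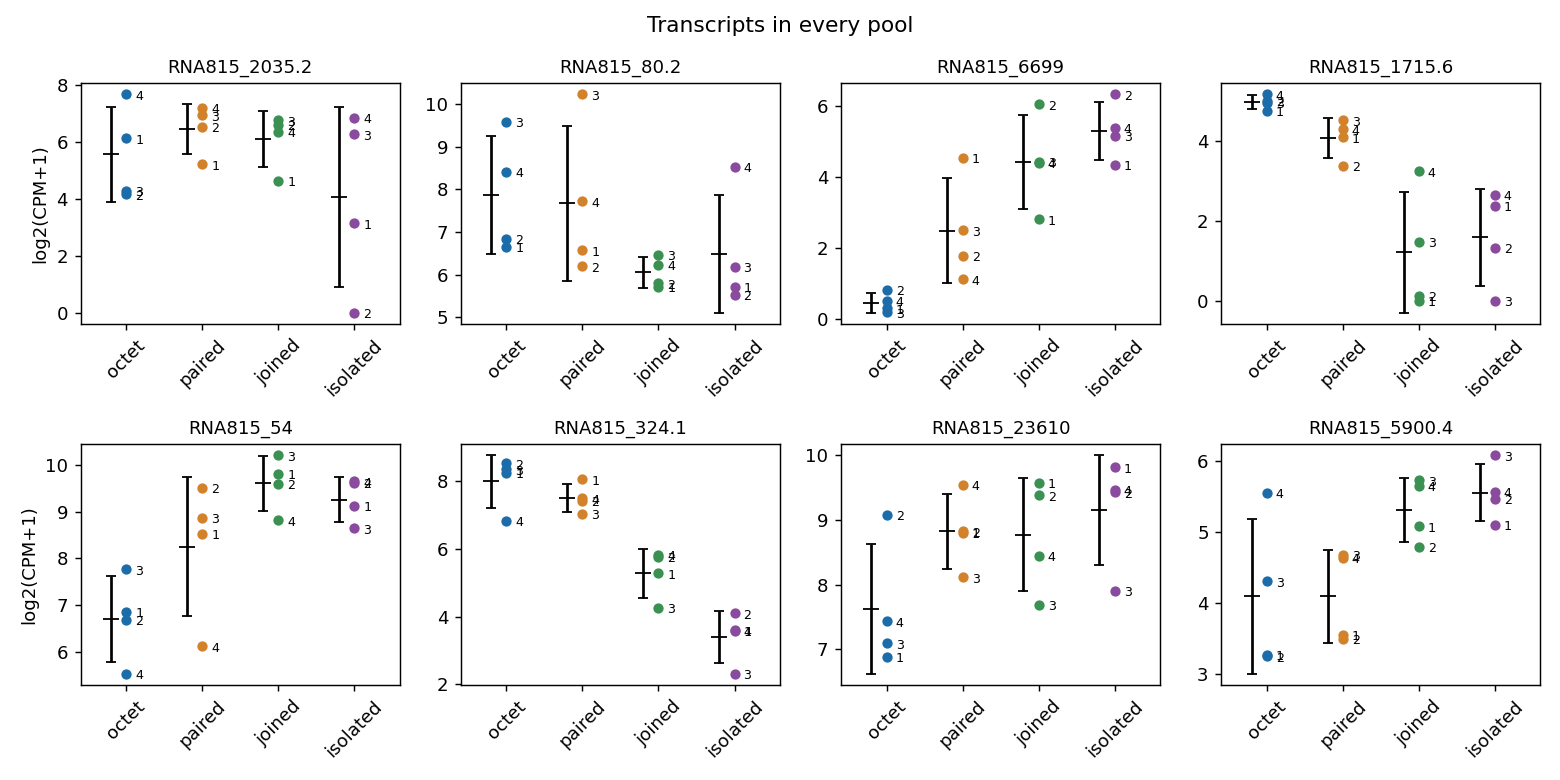
log2(CPM+1) of 8 members in every pool (points, with the pool number), by group, with the mean and SD of the 4 pools as bars. RNA815_2035.2 overlaps between all groups, RNA815_80.2 is higher in all octet than in all joined pools, RNA815_6699 is lowest in all octet pools, RNA815_1715.6 and RNA815_324.1 are high in octet and paired pools, and RNA815_54, RNA815_23610 and RNA815_5900.4 show the pools that stand apart in the large set, the set of 14 and the set of 5.

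Between octet and joined worms 67 of the 100 members with the larger SDs and 59 of the other 100 were called, against a background of 50.7%. The SD that splits them also enters the error of the test, so these counts do not relate spread to calls.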

How the data were processed

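RNA of pooled whole worms was sequenced in 16 libraries, 4 in each of 4 groups, and the groups were taken from the titles in the labels. The submitters' processing notes name Bowtie 0.12.7 and RSEM 1.1.19, and the reference was the assembly MLRNA110815, per the file headers. The deposited values are estimated counts per transcript, written with decimal commas and not scaled for depth, as made by the authors. For the choice of members they were divided by the column total without RNA815_80.1, with a pseudocount of 1. For the tests they were rounded, filtered (at least 4 libraries at 1.26 CPM, which is 10 reads in the median library, and a sum of at least 15) and scaled by TMM factors.

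limma-voom (limma 3.58.1 in R 4.3.3) was fitted to all 16 libraries with 12 residual degrees of freedom, and two-sided p-values were adjusted by Benjamini-Hochberg over 40265 transcripts. The scripts were tested on simulated data. The libraries ranged from 7302416 to 10112451 estimated reads in depth. The limits given for zeros cover counting error only.

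The members, lists and tests were chosen with earlier results of these data known. Transcripts are named by a rule that takes the 12 largest SDs, the largest deviations in each library that leads in at least 10 members, at most 3 higher and 3 lower members per comparison, members of numbers with at least 3 members, those beside the limit, the 3 most typical of each set, the 5 most abundant and the 5 most variable in each group. Others, and the members listed for the smaller sets, were singled out after their values were seen. No sequences or annotation were used here. Alternatives covered scaling, filters, rounding, a replicate block, quality weights, summed numbers, the threshold, other definitions of the list and each library left out.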

Additional observations from a re-analysis of the deposited data

Results flagged for a closer look

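In a group of 4, a library is picked out here when its gap to the nearest other library exceeds Dixon's 95% limit as a share of the group's range, which chance gives in about 1 in 20 groups. RNA815_4 in joined 4, at 568 CPM, lay far below the other joined pools. RNA815_324.1 in octet 4, at 114 CPM, lay far below the other octet pools. Octet 1 stood above the other octet libraries in total reads, with 10112451. Joined 4 had fewer detected transcripts, 64847, than the other joined libraries. Over all members, 28 of 800 member and group combinations (3.5%) passed the same limit, 14 of them through a low value in isolated 3, 5 through a low value in joined 4 and 4 through a high value in octet 2.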

How the results depend on the processing

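The count of members called between octet and joined worms kept within 1.5 times its value under every alternative run, as did that between paired and isolated worms, and no named difference reversed. Leaving out 1 library gave 64 to 152 members by the F-test, 44 to 132 between octet and isolated, 104 to 146 between octet and joined, 0 to 114 between octet and paired, 9 to 22 between joined and paired, 11 to 16 between paired and isolated and 0 between joined and isolated worms. Without paired 4 and isolated 3, chosen after seeing the data, the counts were 166 by the F-test, 156 between octet and isolated, 145 between octet and paired and 18 between joined and paired worms. The deviations in these pools helped to choose the members, so leaving them out lowers the members' error by construction. Between octet and paired worms the count was 7 with limma-trend, 7 with summed numbers, 0 at a threshold of 0.01 and 0 in a fit to the 8 libraries, and with quality weights it was 122, with 21 between joined and paired worms, 11 higher and 10 lower. At 0.01 it was 61 by the F-test and 35 between octet and isolated worms. With the replicate block the counts were 99 between octet and paired worms, 96 of them lower in octet worms, and 38 between joined and paired worms, 28 of them higher in joined worms. The cause of these changes was not tested. Backgrounds are not given for these alternatives, so the changes cannot be read as particular to the members. No label says what a replicate number marks, and the library numbers in the column headers run through the 4 groups within each replicate number. The deviations of same-numbered libraries over the 13588 transcripts had correlations of -0.35 to 0.73 in 24 pairs (median 0.18, against -0.04 for different numbers). They were over 0.1 in 15, among them all 4 pairs of octet and joined libraries, and 7 of 16 libraries correlated best with their own number. Over the members the medians were 0.30 and -0.10, 18 pairs were over 0.1 and 9 libraries correlated best with their own number. Whether the numbers pair the pools of the other groups cannot be told from this. When the median absolute deviation replaced the SD, 132 of the 200 members were kept. Isolated 3, not paired 4, then held the largest share of the squared deviations of the list (16.8%). No library then held the largest deviation of more transcripts than isolated 3, and paired 4 held it for 59. With 1 library left out, 153 to 195 members were kept. The largest set held 114 members at r of 0.6. The median standard error of the fold changes was 0.39 to 0.43 over the members and 0.24 to 0.25 over all tested transcripts.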
